A study of Mus musculus with 4 samples.

Results

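The genes described here are those by which proteins enter the endoplasmic reticulum (ER), lose their signal peptide, receive N-linked sugars and pass through the calnexin cycle. The set is a fixed list of 40 genes, of which 39 had a probe set that names only that gene, out of 19938 genes measured on the same arrays. The missing gene was Sec61g, the gamma subunit of the translocation channel, because each of the 4 probe sets that name it also names other genes. Where several probe sets named a gene, the brightest on average was taken.

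A nascent secretory protein is first bound at its signal peptide by the signal recognition particle (SRP), which docks at the SRP receptor on the ER membrane and hands the ribosome to the Sec61 channel. While the chain is threaded through, signal peptidase cuts off the signal peptide, and oligosaccharyltransferase transfers a preassembled sugar tree from the lipid dolichol to asparagine residues. Glucosidases then trim this tree, and the lectins calnexin and calreticulin hold the glycoprotein until it has folded. Crypt cells that fill secretory granules, such as Paneth and goblet cells, depend heavily on this route.

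The data were 4 Affymetrix arrays of sorted crypt cells from the small intestine of adult mice, with 1 array for each group and therefore no replicates. The Zip7 KO mice were Zip7flox/flox and the control mice Zip7flox/+, where Zip7 is Slc39a7, the gene of a zinc transporter of the ER and Golgi. Both genotypes also carried villin-CreERT2, which acts in the intestinal epithelium, and Lgr5-EGFP-ires-CreERT2, which marks Lgr5-expressing cells, and both received tamoxifen for 2 days. The controls thus carried 1 floxed copy and both Cre drivers themselves. The groups were Zip7 KO labelled Lgr5-Hi, control labelled Lgr5-Hi, Zip7 KO labelled Lgr5-Med and control labelled Lgr5-Med, the last fraction being called Lgr5-Mid in the sample titles. The number of animals behind an array, and whether both fractions of a genotype came from the same mice, are not in the labels.

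Some features of the arrays bear on every comparison. Slc39a7 itself stood at 9.02 in Zip7 KO and 8.92 in control under the label Lgr5-Hi, and at 8.22 in Zip7 KO and 8.61 in control under the label Lgr5-Med, and since the position of its probes against the floxed exons is unknown here, these values do not check the genotype labels. Lgr5 ran against the fraction labels, with 7.93 (Zip7 KO) and 7.79 (control) in the arrays labelled Lgr5-Hi and 11.24 (Zip7 KO) and 10.97 (control) in those labelled Lgr5-Med, so each fraction is named by its label throughout. Xist, the RNA that silences an X chromosome, had 5.59 and 5.43 in the Zip7 KO arrays and 11.64 and 11.84 in the control arrays, so that sex and genotype cannot be told apart. Of the genes described here, Ssr4 and Magt1 lie on the X chromosome.

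All 39 genes lay above the expression floor on all 4 arrays, with values from 6.75 to 12.78 on the log2 scale. The floor of an array was percentile 95 of its values for 1209 chemosensory receptor genes (olfactory, vomeronasal, trace amine). Probe sets differ in their response, so levels are compared between arrays for 1 gene and never between genes. With 1 array a group no difference could be tested, and differences are given on the log2 scale beside the same measure over all genes that passed the floor on 1 or more of the arrays compared. In 632 genes with several probe sets above the floor, the genotype differences given by the probe sets of 1 gene spanned a median of 0.11 under Lgr5-Hi. Under Lgr5-Med this probe set spread had a median of 0.10. Probe sets of a gene are read on the same arrays, so the spread leaves out variation between animals, sorts and arrays.

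**Figure D1:**
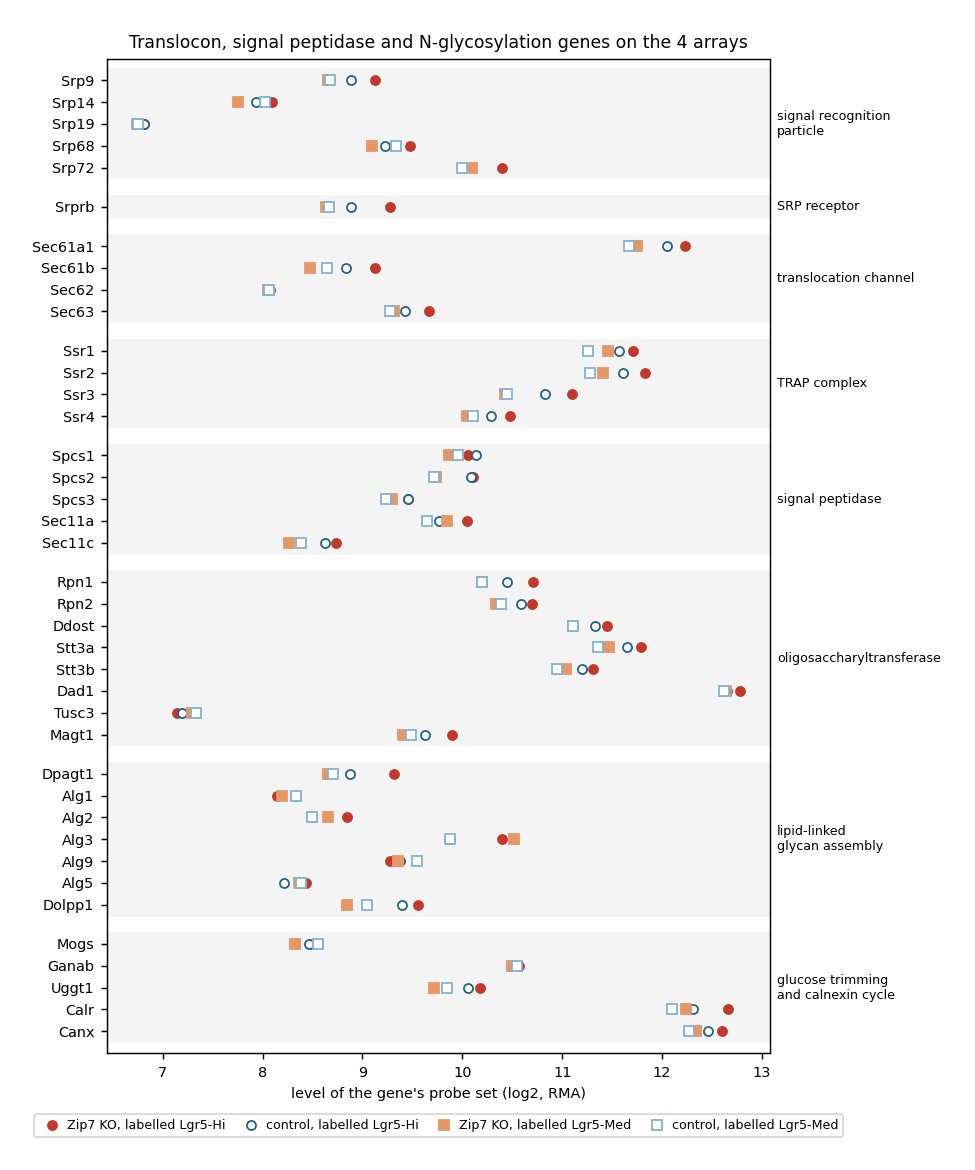
Level of each of the 39 genes (log2 RMA value of its probe set, x axis) on the 4 arrays, grouped by role. Filled red circles are Zip7 KO labelled Lgr5-Hi, open dark blue circles control labelled Lgr5-Hi, filled orange squares Zip7 KO labelled Lgr5-Med and open light blue squares control labelled Lgr5-Med; the Zip7 KO array labelled Lgr5-Hi is the highest of the 4 for 31 genes.

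The first question was how Zip7 KO differed from control among cells labelled Lgr5-Hi. The set was shifted to slightly higher values in the Zip7 KO array: 33 of 39 genes were higher, where 55.0% of the 11991 genes tested were, with a median difference of 0.16 (1.12-fold) against 0.02 over all genes. The shift was broad but small. After quantile normalisation 30 of 39 were higher, after centring on the median of all genes tested 31, and after removal of a loess trend 30. The shares of all genes were then 45.3%, 47.9% and 49.8%. With the loess trend removed the median was 0.09, against -0.00 over all genes. At least 1.2-fold higher (0.26 on the log2 scale) were 10 of the 39 genes, beside 10.7% of all genes, and none was 1.2-fold lower, beside 8.41% of all genes. No gene of the set reached 1.5-fold, which 1.08% of all genes did. The lowest difference was -0.19 (Alg1) and the highest 0.52 (Alg3). More cells of a type and more RNA per cell cannot be told apart in such sorted bulk samples.

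Among cells labelled Lgr5-Med the set as a whole did not stand apart from other genes. Higher in Zip7 KO were 17 of 39 genes, where 44.1% of the 12246 genes tested were, and the median difference was -0.01 against -0.03 over all genes. After each array was centred on its median over all genes tested, 28 of 39 were higher, where 60.2% of all genes were, with a median of 0.06 against 0.05 over all genes. Centring adds 1 constant to every gene. At least 1.2-fold higher was 1 gene, Alg3, beside 6.21% of all genes, and it was also past 1.5-fold, which 0.425% of genes were. At least 1.2-fold lower was 1 gene, Srp14, beside 12.6% of all genes.

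**Figure D2:**
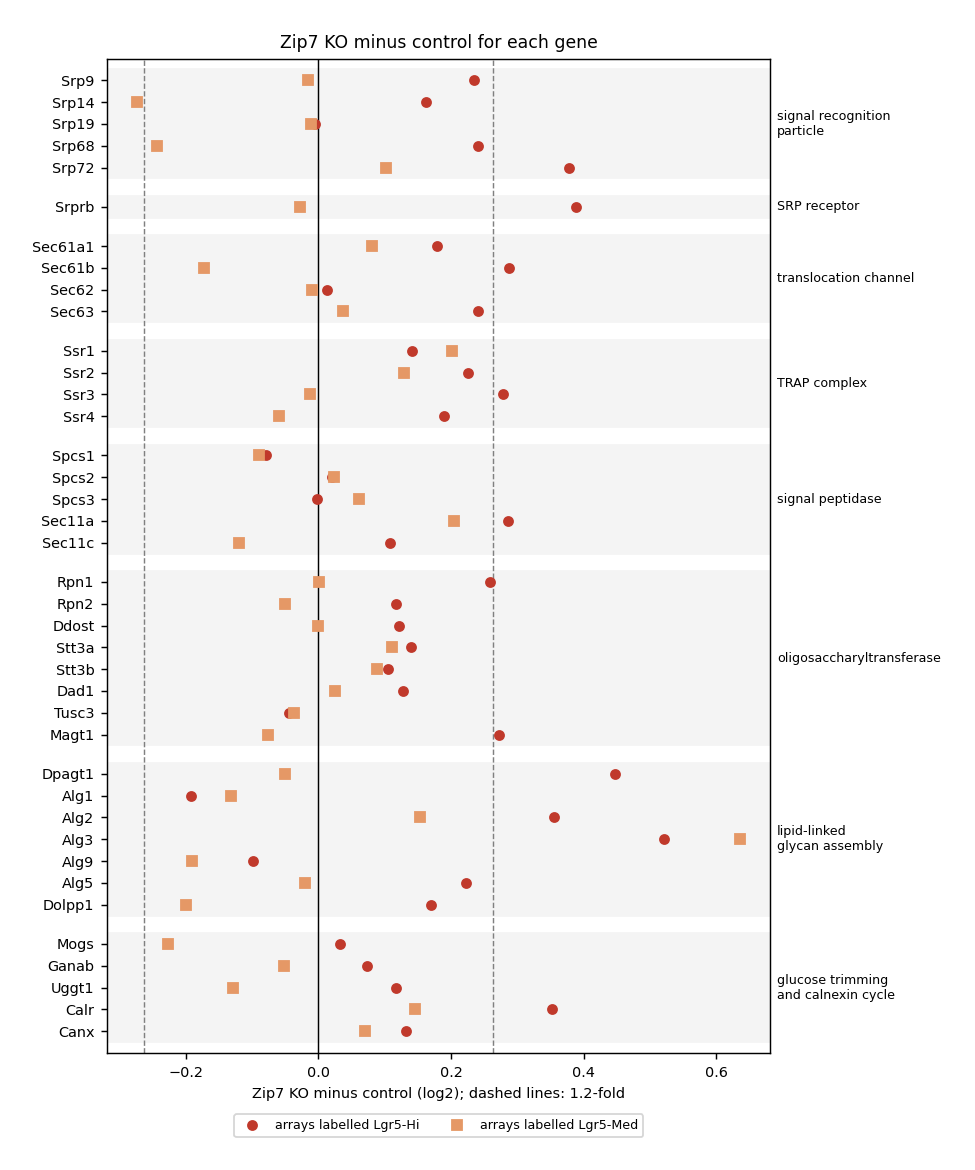
Zip7 KO minus control (log2, x axis) for each of the 39 genes under the label Lgr5-Hi (red circles) and Lgr5-Med (orange squares), grouped by role; dashed lines mark 1.2-fold. Most circles lie to the right of 0, the squares lie on both sides of it, and Alg3 is far to the right in both.

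**Figure D3:**
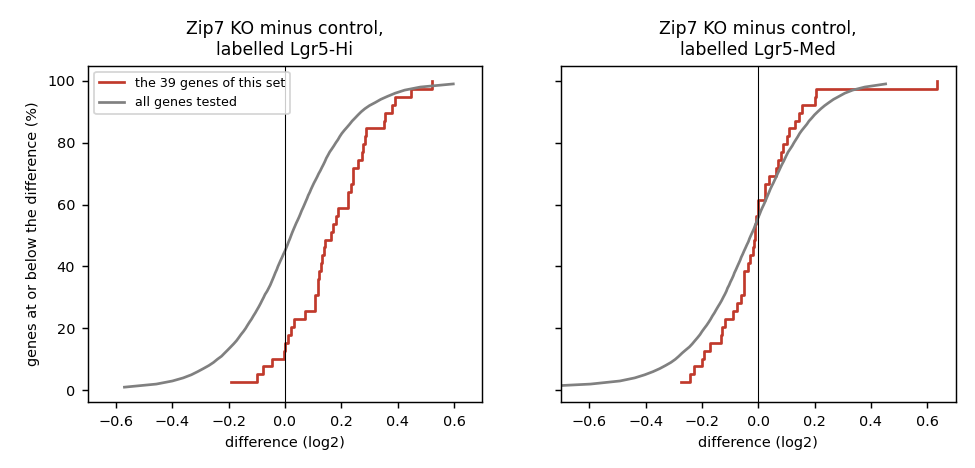
Cumulative share of genes (y axis, %) against Zip7 KO minus control (log2, x axis) for the 39 genes (red steps) and for percentiles 1 to 99 of all genes tested (grey). Under the label Lgr5-Hi the red line lies to the right of the grey one, with medians of 0.16 and 0.02; under Lgr5-Med the lines cross near 0.

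The particle that captures signal peptides was higher in Zip7 KO under the label Lgr5-Hi in 4 of its 5 subunits measured. The share of all genes higher under this label was 55.0%. Srp72, which with Srp68 forms the scaffold of the large domain, stood at 10.40 in Zip7 KO and 10.02 in control labelled Lgr5-Hi, and at 10.10 in Zip7 KO and 9.99 in control labelled Lgr5-Med. Both Zip7 KO arrays were thus above both control arrays. Srp68 had 9.47 in Zip7 KO and 9.23 in control under Lgr5-Hi, against 9.10 in Zip7 KO and 9.34 in control under Lgr5-Med, which gives differences of 0.24 and -0.24, so that under Lgr5-Med these partners lay on opposite sides of their controls. Srp9 and Srp14, which together pause translation, differed by 0.23 and 0.16 under Lgr5-Hi and by -0.02 (above 0 in every other scaling tried) and -0.27 under Lgr5-Med. Srp14 had 8.09 (Zip7 KO) and 7.93 (control) in the arrays labelled Lgr5-Hi and 7.75 (Zip7 KO) and 8.03 (control) in those labelled Lgr5-Med. A further probe set that names Srp9 gave -0.16 and -0.12, so the direction of Srp9 under Lgr5-Hi rests on the choice of probe set. Srp19, which helps assemble the particle on its RNA, had 6.81 and 6.75 in the Zip7 KO arrays labelled Lgr5-Hi and Lgr5-Med and 6.82 and 6.76 in the controls with these labels, and so hardly varied, with a sign that turned with the scaling.

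Both subunits of the SRP receptor were higher in Zip7 KO under the label Lgr5-Hi. Srprb, the membrane-anchored beta subunit, had 9.28 in Zip7 KO and 8.89 in control labelled Lgr5-Hi, a difference of 0.39 at percentile 95.9 of all genes. Under Lgr5-Med it had 8.64 in Zip7 KO and 8.67 in control, a difference whose sign turned after centring and after removal of the loess trend. Srpr, the alpha subunit, which is not among the 40 genes and was named after its values were seen, differed by 0.42 and 0.06.

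In the channel itself 4 of 4 genes measured were higher under the first label, or 3 of 4 in each other scaling, where Sec62 turned. The share of all genes was 55.0%, or 45.3% to 49.8% in the other scalings. Sec61a1, the pore-forming subunit, had 12.23 in Zip7 KO and 12.05 in control labelled Lgr5-Hi, and 11.75 in Zip7 KO and 11.67 in control labelled Lgr5-Med. Its paralog Sec61a2, which is outside the set, had 8.31 and 7.81 in Zip7 KO and control labelled Lgr5-Hi and 8.12 and 7.89 in Zip7 KO and control labelled Lgr5-Med, differences of 0.50 and 0.23. The paralog therefore differed more than the main pore gene, whose differences were 0.18 and 0.08. Sec61b, the small beta subunit, had 9.12 in Zip7 KO and 8.83 in control under Lgr5-Hi, and 8.48 in Zip7 KO and 8.65 in control under Lgr5-Med. All 3 probe sets that name Sec61b gave a difference between 0.27 and 0.29 under Lgr5-Hi, whereas under Lgr5-Med they ranged from -0.17 to 0.01. Sec63, the J-domain protein that recruits the chaperone BiP to the channel, differed by 0.24 and 0.04, while its partner Sec62 differed by 0.01 and -0.01.

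The TRAP complex, 4 membrane proteins that sit beside the channel and help some signal peptides to open it, was higher in Zip7 KO in all 4 subunits under Lgr5-Hi, with differences from 0.14 (Ssr1) to 0.28 (Ssr3). Under Lgr5-Med 2 of 4 were higher, or all 4 after centring. Among all genes the shares were 55.0% under Lgr5-Hi, 44.1% under Lgr5-Med and 60.2% under Lgr5-Med after centring. Ssr1 had 11.71 in Zip7 KO and 11.57 in control labelled Lgr5-Hi and 11.46 in Zip7 KO and 11.26 in control labelled Lgr5-Med, so its difference was 0.20 under the second label. Ssr2 differed by 0.22 and 0.13, Ssr3 by 0.28 and -0.01, and the X-linked Ssr4 by 0.19 and -0.06.

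Signal peptidase had a median difference of 0.02 under either label, which was between -0.06 and -0.01 under Lgr5-Hi in the other scalings. Its largest differences were those of Sec11a, 1 of the alternative catalytic subunits, with 10.05 in Zip7 KO and 9.76 in control labelled Lgr5-Hi and 9.85 in Zip7 KO and 9.65 in control labelled Lgr5-Med. The other catalytic subunit, Sec11c, had 8.73 and 8.63 in Zip7 KO and control under Lgr5-Hi and 8.27 and 8.39 in Zip7 KO and control under Lgr5-Med. The Sec11a differences of 0.29 and 0.20 stood beside 0.11 and -0.12 for Sec11c. The accessory subunits Spcs1, Spcs2 and Spcs3 lay between -0.09 and 0.06 under both labels.

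Oligosaccharyltransferase was higher in Zip7 KO in 7 of 8 subunits under Lgr5-Hi, with a median of 0.12, and in 5 of 8 under Lgr5-Med, with a median of 0.00. After centring 7 of 8 and after loess 3 of 8 were higher under Lgr5-Med. Of all genes 55.0% were higher under Lgr5-Hi and 44.1% under Lgr5-Med, the latter 60.2% after centring and 49.7% after loess. The catalytic subunits differed by like amounts: Stt3a, which acts at the channel during translation, differed by 0.14 and 0.11, and Stt3b, which also acts after translation, by 0.11 and 0.09. Stt3a had 11.79 and 11.65 in Zip7 KO and control labelled Lgr5-Hi and 11.47 and 11.36 in Zip7 KO and control labelled Lgr5-Med. The corresponding values of Stt3b were 11.31 (Zip7 KO) and 11.20 (control) for Lgr5-Hi and 11.04 (Zip7 KO) and 10.95 (control) for Lgr5-Med. Magt1 and Tusc3 are alternative oxidoreductase subunits of the complex that holds Stt3b, and they did not run in parallel. The X-linked Magt1 had 9.90 in Zip7 KO and 9.63 in control under Lgr5-Hi against 9.41 in Zip7 KO and 9.48 in control under Lgr5-Med. Tusc3 lay lower in Zip7 KO under both labels by amounts inside the probe set spread (above its control under Lgr5-Med after centring and loess), at 7.15 (Zip7 KO) and 7.19 (control) and at 7.29 (Zip7 KO) and 7.33 (control). Among the shared subunits Rpn1 differed by 0.26 and 0.00, Rpn2 by 0.12 and -0.05, Ddost by 0.12 and 0.00 and Dad1, also known as an inhibitor of cell death, by 0.13 and 0.03. Dad1 had 12.78 and 12.65 in Zip7 KO and control labelled Lgr5-Hi, and 12.64 and 12.62 in Zip7 KO and control labelled Lgr5-Med.

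The enzymes that build the sugar tree on dolichol held both the largest positive and the largest negative difference of the set under Lgr5-Hi. Alg3, the mannosyltransferase that adds the first mannose on the lumenal side, had 10.39 in Zip7 KO and 9.87 in control labelled Lgr5-Hi, and 10.51 in Zip7 KO and 9.88 in control labelled Lgr5-Med. The difference of 0.52 (1.43-fold) was at percentile 98.5 and that of 0.64 (1.55-fold) at percentile 99.7 of all genes. The Alg3 controls of both fractions stood within 0.01 of each other, and Alg3 was the only 1 of the 39 genes whose highest value was in the Zip7 KO array labelled Lgr5-Med. Its 8 measured neighbours in the RefSeq gene table, which were looked up after the values of Alg3 were seen, differed by -0.50 to 0.28 under Lgr5-Hi and by -0.21 to 0.55 under Lgr5-Med. The highest of them under both labels was the pseudogene Gm15760, with 6.53 and 6.52 in Zip7 KO and 6.25 and 5.97 in control labelled Lgr5-Hi and Lgr5-Med, which is close to the floor.

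Dpagt1, which starts the tree by attaching the first sugar to dolichol phosphate and is the target of tunicamycin, had 9.32 in Zip7 KO and 8.87 in control under the label Lgr5-Hi. Its values under Lgr5-Med were 8.65 in Zip7 KO and 8.70 in control. The difference of 0.45 (1.36-fold) was at percentile 97.4 under the first label and at 45.1, with -0.05, under the second. Alg2, which adds the next mannoses on the cytosolic side, had 8.85 and 8.49 in Zip7 KO and control labelled Lgr5-Hi and 8.65 and 8.50 in Zip7 KO and control labelled Lgr5-Med. Alg1, which adds the mannose before those, ran the other way, with 8.14 in Zip7 KO and 8.34 in control under Lgr5-Hi and 8.20 in Zip7 KO and 8.33 in control under Lgr5-Med. The lumenal mannosyltransferase Alg9 was also lower in both Zip7 KO arrays, at 9.28 and 9.35 under Lgr5-Hi and Lgr5-Med against 9.37 and 9.54 in the controls with these labels. Enzymes of the same pathway thus lay on both sides of their controls. Alg5, which makes the dolichol-bound glucose donor, differed by 0.22 and -0.02. Dolpp1, which recycles the dolichol pyrophosphate left after transfer, had 9.56 and 9.39 in Zip7 KO and control labelled Lgr5-Hi and 8.84 and 9.04 in Zip7 KO and control labelled Lgr5-Med.

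After transfer, the sugar tree is trimmed and read by the calnexin cycle. All 5 genes of this step were higher in Zip7 KO under Lgr5-Hi. After quantile normalisation 4 were, where Mogs turned, and after loess 3 were, where Ganab turned too. The shares of all genes were 55.0%, 45.3% and 49.8% in turn. Calr, the soluble lectin chaperone calreticulin, had 12.66 in Zip7 KO and 12.31 in control labelled Lgr5-Hi, and 12.24 in Zip7 KO and 12.10 in control labelled Lgr5-Med. Canx, its membrane-bound paralog calnexin, had 12.60 in Zip7 KO and 12.46 in control under Lgr5-Hi, and 12.34 in Zip7 KO and 12.27 in control under Lgr5-Med. The differences of Calr, 0.35 and 0.15, were larger than those of Canx, 0.13 and 0.07, under both labels. Uggt1, the folding sensor that puts a glucose back on misfolded glycoproteins, differed by 0.12 and -0.13, and the alpha subunit of glucosidase II, Ganab, by 0.07 and -0.05. Mogs, glucosidase I, had 8.49 and 8.46 in Zip7 KO and control labelled Lgr5-Hi and 8.33 and 8.56 in Zip7 KO and control labelled Lgr5-Med.

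The promoters of these lectins are shown because, of the promoters at hand, they alone in the set held the ER stress response element, the sequence at which ATF6 and NF-Y bind. The RefSeq promoter table (build GRCm38.p6, 250 bases before to 50 bases after the start site) held 31 of the 40 genes. Srp19, Srp68, Sec61a1, Ssr2, Spcs3, Sec11c, Tusc3, Dpagt1 and Alg2 had no entry. The element (ERSE) was searched as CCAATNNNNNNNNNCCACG on both strands and occurred in 2 of 31 genes, Calr and Canx, beside 0.137% of the 27025 genes with a promoter and 5 of 18 genes of the ER chaperone list. ERSE-II (ATTGGNCCACG) occurred in 0 of 31 and in 0.0444% of genes, and the XBP1 element TGACGTGG in 0 of 31 and in 0.714%. The short site CCACG, which is part of both ERSE forms and, on the other strand, of the XBP1 element, was in 18 of 31 and in 35.5% of genes, and CCAAT, part of both ERSE forms on 1 strand or the other, in 18 of 31 and in 41.1%. In the lines below the fixed letters of the element are in capitals for Calr, where it lies on the opposite strand 162 to 144 bases before the start, and for Canx, 145 to 127 bases before it. Alg3, the gene with the largest differences, is shown with its only CCAAT box in capitals, and Srprb, with the largest difference under Lgr5-Hi of the genes outside the lipid-linked group, with its 3 CCACG sites in capitals. A match is a description of letters and not evidence of binding.
Calr, chr8:84846882-84847181, minus strand: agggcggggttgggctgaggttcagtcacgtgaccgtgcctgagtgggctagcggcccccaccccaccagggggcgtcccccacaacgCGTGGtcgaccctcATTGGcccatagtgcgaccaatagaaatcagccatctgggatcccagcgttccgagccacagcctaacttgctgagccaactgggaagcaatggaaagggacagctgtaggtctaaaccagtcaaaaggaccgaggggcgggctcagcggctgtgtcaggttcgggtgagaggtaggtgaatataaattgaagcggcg
Canx, chr11:50325624-50325923, minus strand: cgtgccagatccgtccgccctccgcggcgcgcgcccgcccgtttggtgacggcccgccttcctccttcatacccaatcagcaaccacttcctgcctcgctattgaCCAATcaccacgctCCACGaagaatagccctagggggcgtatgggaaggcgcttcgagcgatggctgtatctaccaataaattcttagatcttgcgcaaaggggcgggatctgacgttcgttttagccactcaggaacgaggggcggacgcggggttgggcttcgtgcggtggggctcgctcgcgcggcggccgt
Alg3, chr16:20610712-20611011, minus strand: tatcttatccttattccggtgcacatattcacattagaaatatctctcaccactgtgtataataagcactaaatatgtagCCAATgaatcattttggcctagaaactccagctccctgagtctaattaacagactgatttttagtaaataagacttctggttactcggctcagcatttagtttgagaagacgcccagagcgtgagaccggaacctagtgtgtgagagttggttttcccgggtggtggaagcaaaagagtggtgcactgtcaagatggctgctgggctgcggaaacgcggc
Srprb, chr9:103202016-103202315, minus strand: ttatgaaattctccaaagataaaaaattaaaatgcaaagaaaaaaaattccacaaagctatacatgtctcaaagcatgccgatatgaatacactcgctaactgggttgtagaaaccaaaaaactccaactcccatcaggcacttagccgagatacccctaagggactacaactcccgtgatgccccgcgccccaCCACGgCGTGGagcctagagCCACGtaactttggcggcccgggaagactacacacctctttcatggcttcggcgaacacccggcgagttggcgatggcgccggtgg

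Few genes of the set separated the genotypes across both fractions. Both Zip7 KO arrays lay above both control arrays for 4 of 39 genes, Srp72, Sec11a, Alg2 and Alg3, beside 14.2% of all genes, and below them for 2, Alg1 and Alg9, beside 15.9%. These shares were no higher than those of all genes. In the 39 genes 16 were higher in Zip7 KO under both labels and 17 were higher under Lgr5-Hi and lower under Lgr5-Med. The reverse held for 1, and 5 were lower under both. The share of all genes with each of these patterns was not counted. All genes leaned the same way, with 55.0% higher under Lgr5-Hi and 44.1% under Lgr5-Med. Across the 39 genes the differences under the 2 labels, which share no array, correlated with Pearson's r = 0.449, and with r = 0.287 without Alg3. Genes are not independent replicates, and these points share the platform and the same normalisation. No r over all genes is given beside these values.

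The difference between the genotype differences, Lgr5-Hi minus Lgr5-Med, was above 0 in 33 of 39 genes, where 59.9% of the 12406 genes tested were, with a median of 0.17 against 0.05 over all genes. After centring on the median of all genes tested 22 of 39 were above 0, where 39.1% of all genes were, with a median of 0.06 against -0.06. The size of 1.2-fold was passed by 9 of 39 genes, beside 16.5% of all genes. The highest value was 0.50 for Dpagt1, followed by 0.48 for Srp68, 0.46 for Sec61b and 0.43 for Srp14. This difference uses all 4 arrays and was not tested.

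The second question was how the fractions differed within a genotype. In Zip7 KO 35 of 39 genes were higher in the array labelled Lgr5-Hi than in that labelled Lgr5-Med, where 49.2% of all genes were, with a median difference of 0.34 against -0.00 over all genes. At least 1.2-fold higher were 23 of 39, beside 18.7% of all genes, and at least 1.5-fold higher were 5, beside 5.90%. The 5 were Dolpp1 (0.72), Ssr3 (0.67), Dpagt1 (0.66), Sec61b (0.64) and Srprb (0.64). In controls 29 of 39 were higher under the label Lgr5-Hi, where 43.3% of all genes were, or 33 after centring on the median of all genes tested, where 57.3% were. The controls had a median of 0.18 against -0.04 over all genes. At least 1.2-fold higher were 7 in controls, beside 10.6% of all genes: Sec61a1, Ssr1, Ssr2, Ssr3, Spcs2, Stt3a and Dolpp1. These comparisons use the same arrays as the genotype comparisons and are not independent of them.

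Both arrays labelled Lgr5-Hi lay above both labelled Lgr5-Med for 26 of 39 genes, beside 24.0% of all genes. The Zip7 KO array labelled Lgr5-Hi was the highest of the 4 for 31 of 39, beside 26.8% of all genes. The TRAP complex illustrates the order, with Ssr3 at 11.10 in Zip7 KO and 10.82 in control labelled Lgr5-Hi, and 10.43 in Zip7 KO and 10.44 in control labelled Lgr5-Med. The other 13 genes included 5 of lipid-linked glycan assembly (Alg1, Alg2, Alg3, Alg5 and Alg9), 3 of the signal recognition particle (Srp14, Srp68 and Srp72), and Sec62, Sec11a, Tusc3, Mogs and Ganab. Alg9 and Tusc3 were lower under Lgr5-Hi in both genotypes, with -0.14 in each for Tusc3. Alg3 was lower in Zip7 KO (-0.12) and hardly differed in controls (-0.01). The fraction differences of the 39 genes in Zip7 KO and in controls, which share no array, correlated with r = 0.682. No r over all genes is given beside it, and genes are not independent replicates.

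**Figure D4:**
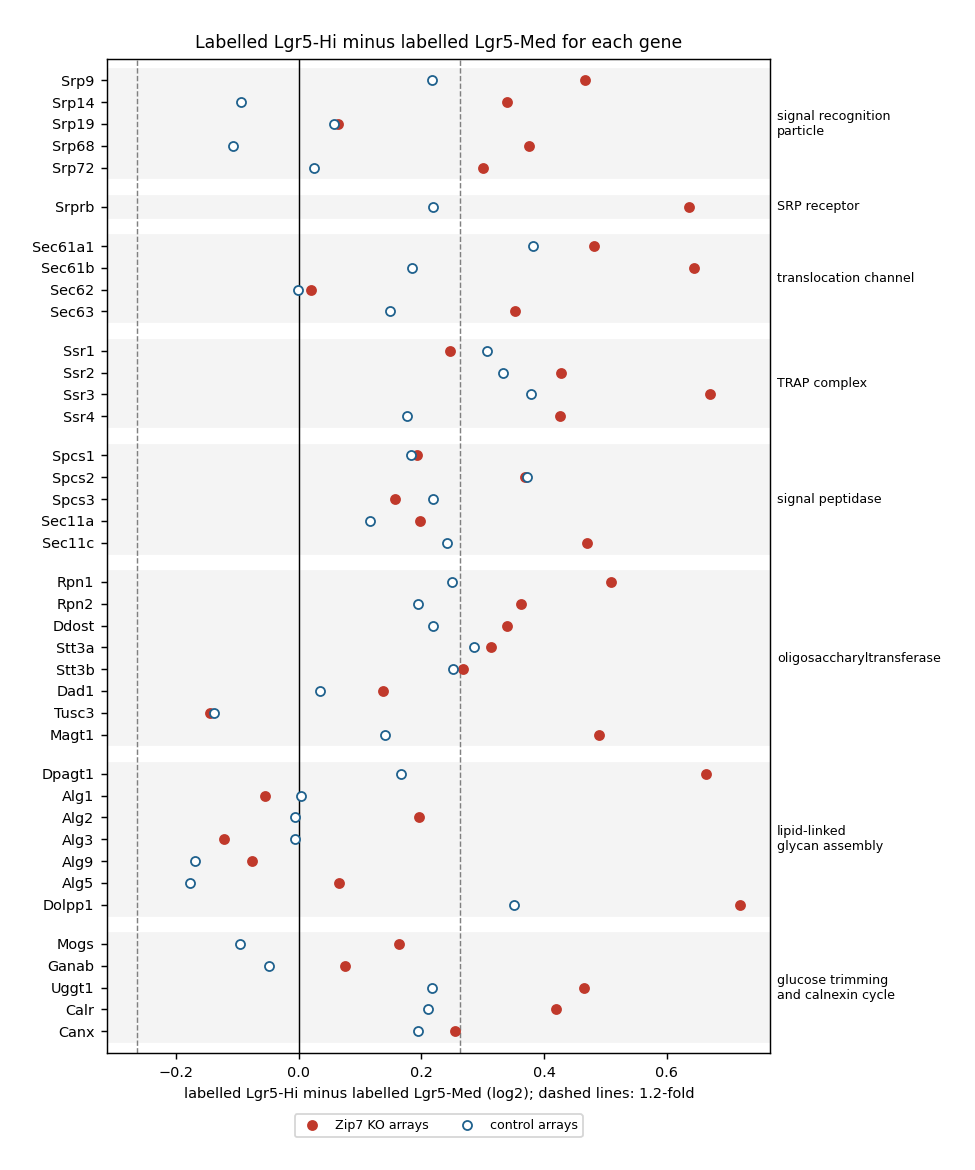
Labelled Lgr5-Hi minus labelled Lgr5-Med (log2, x axis) for each of the 39 genes in Zip7 KO (filled red circles) and control (open blue circles), grouped by role; dashed lines mark 1.2-fold. Nearly all genes outside lipid-linked glycan assembly lie to the right of 0 in Zip7 KO, and 7 genes lie right of the 1.2-fold line in controls.

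Markers of secretory cells, and of some other cell types, differed between the fractions. All 8 Paneth cell markers tested were higher in the array labelled Lgr5-Hi, with a median of 1.24 in Zip7 KO and 0.81 in controls, as were 7 of 7 goblet cell markers (1.33 and 1.02) and 8 of 8 enteroendocrine markers (2.54 and 2.57), while all 8 stem cell markers were lower (-1.35 and -1.23). The log2 summed level of the goblet cell markers was 15.38 and 13.92 in the Zip7 KO arrays labelled Lgr5-Hi and Lgr5-Med, and 15.37 and 14.36 in the controls. Their part in the result was not tested. In the genotype comparisons 0 of 8 Paneth cell markers were higher under either label, with medians of -0.83 and -1.50, and 3 and 1 of 7 goblet cell markers were, with medians of -0.05 and -0.36. The goblet cell markers higher under Lgr5-Hi were Clca1 (0.45), Agr2 (0.27) and Zg16 (0.16). Those lower were Spink4 (-0.39), Spdef (-0.33), Muc2 (-0.24) and Tff3 (-0.05). Of the enteroendocrine markers 2 and 4 of 8 were higher, with medians of -0.41 and -0.07. Under Lgr5-Hi Sst (0.55) and Gip (0.25) were higher. Lower there were Insm1 (-0.63), Chga (-0.53), Chgb (-0.51), Ghrl (-0.44), Gcg (-0.38) and Neurod1 (-0.23). Of the enterocyte markers 5 and 0 of 8 were higher, with medians of 0.02 and -0.34. Of the tuft cell markers 2 and 5 of 5 were, with medians of -0.05 and 0.33. The summed level of the Paneth cell markers was 14.73 in Zip7 KO and 15.25 in control under Lgr5-Hi, and 13.57 in Zip7 KO and 14.66 in control under Lgr5-Med. Mptx1 lay below the floor on all arrays. Lymphocyte and myeloid markers were lower in Zip7 KO in all 9 tested under Lgr5-Hi and all 10 under Lgr5-Med. Of all genes 55.0% and 44.1% were higher under these labels. Cd79a and Csf1r lay below the floor on all arrays. Lyz2 is counted both in this list and in that of the Paneth cell markers, with -0.16 and -0.62. Plasma cells are rich in ER. Of their 5 markers, Jchain and Tnfrsf17 were below the floor on all arrays, Mzb1 was above it on 2 and Pou2af1 on 3. The plasma cell marker Sdc1, which epithelial cells also express, was above the floor on all 4, with 9.10 and 9.35 in Zip7 KO and 9.05 and 9.15 in control labelled Lgr5-Hi and Lgr5-Med.

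Of 71 further genes of translocation and glycosylation 66 had a probe set of their own and 64 were above the floor. Under the label Lgr5-Hi 57 of 64 were higher in Zip7 KO with a median of 0.19, including 20 at 1.2-fold or more and 0 at 1.5-fold. Of all genes 55.0% were higher, 10.7% by 1.2-fold or more and 1.08% by 1.5-fold. After removal of the loess trend 49 of 64 were higher, beside 49.8% of all genes. Under Lgr5-Med 35 of 64 were higher with a median of 0.03, or 45 after centring, beside 44.1% and 60.2% of all genes. The 1.2-fold line was passed upward by 6 and downward by 4, beside 6.21% and 12.6% of all genes. The glycosylation genes among them had a median of 0.24 and the translocation genes one of 0.15 under Lgr5-Hi. Between the fractions these 64 genes had a median of 0.17 in Zip7 KO and 0.05 in controls, beside 0.34 and 0.18 in the set. Higher under Lgr5-Hi were 50 and 38 of them, beside 49.2% and 43.3% of all genes.

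The ER chaperones differed much more than the machinery of entry and glycosylation. Of 21 chaperone and disulfide isomerase genes tested under Lgr5-Hi 19 were higher in Zip7 KO, beside 55.0% of all genes. The median was 0.61, and 11 passed 1.5-fold, beside 1.08% of all genes. Hspa5, which encodes BiP, had 13.09 in Zip7 KO and 12.48 in control labelled Lgr5-Hi, and 12.39 in Zip7 KO and 12.14 in control labelled Lgr5-Med. The largest differences of the list were those of Creld2 (1.61 and 0.51), Sdf2l1 (1.15 and 0.59), Pdia4 (1.12 and 0.34), Dnajc3 (0.99 and 0.15), Manf (0.92 and 0.18) and Ero1b (0.87 and 0.15), ranked under Lgr5-Hi and given for Lgr5-Hi and Lgr5-Med in turn. All 6 act in ER protein folding. Under Lgr5-Med the list had a median of 0.18 with 16 of 22 genes higher, beside 44.1% of all genes. Pdia3 is in both this list and that of the other glycosylation genes. The genes of COPII and COPI vesicles, the next step of the route, were closer to the set, with 21 of 23 higher under Lgr5-Hi, a median of 0.19 and none past 1.5-fold, and a median of 0.01 under Lgr5-Med. Xbp1, a transcription factor of the unfolded protein response that is also controlled by splicing, differed by 0.13 and -0.20. Derl3, of ER-associated degradation, had 11.07 in Zip7 KO and 7.34 in control labelled Lgr5-Hi, and 8.56 in Zip7 KO and 6.88 in control labelled Lgr5-Med. These lists were not tested against each other.

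**Figure D5:**
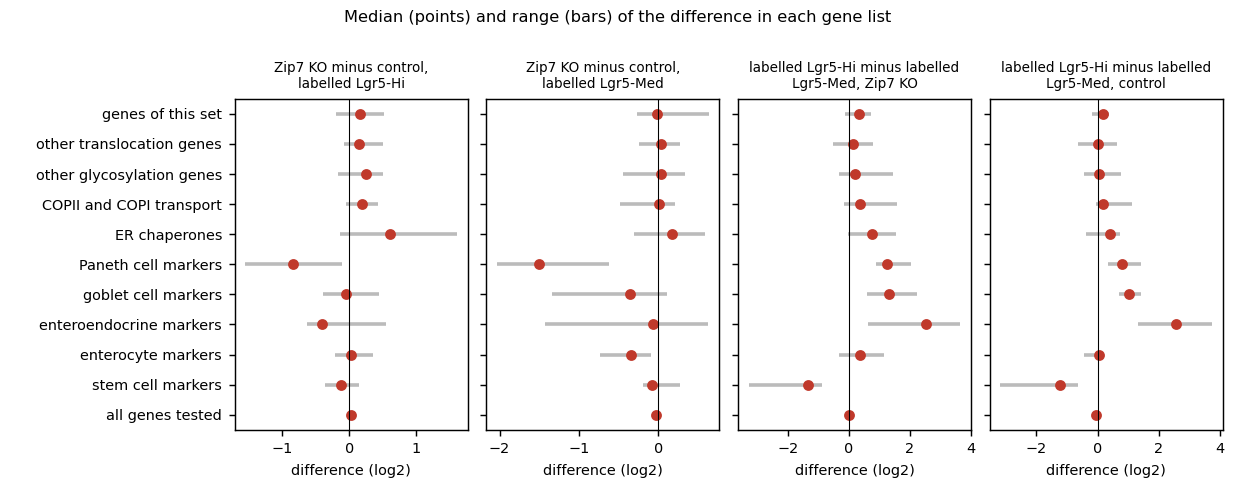
Median (red points) and range (grey bars) of the log2 difference in each gene list for the 4 comparisons; each panel has its own x axis, and the bottom row gives the median of all genes tested. The median of the ER chaperones, 0.61 under Lgr5-Hi, lies to the right of the 0.16 of the translocon, signal peptidase and N-glycosylation genes.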

How the data were processed

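The authors deposited log2 intensities per probe set, produced by RMA per the submitters' processing notes. RMA corrects the background, normalises by quantiles and summarises probes on a log scale, which is meant to even out overall shifts between arrays. The medians over all probe sets still differed somewhat. They were 6.44 (Zip7 KO) and 6.43 (control) for Lgr5-Hi, and 6.45 (Zip7 KO) and 6.34 (control) for Lgr5-Med. The base of the logarithm was taken as 2, and the software version and the set of arrays normalised jointly are unknown here. The 4 value columns were all used.

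Of 35557 probe sets 21789 name 1 gene, 1621 several and 12147 are not listed in the platform annotation. Only the first kind was used, and 39 genes of the set matched RefSeq by Entrez ID. Where several probe sets named a gene, that with the highest mean was taken. Comparisons held genes past the floor on 1 or more of the arrays involved, without receptor genes. Differences were taken in Python 3.11.15 and counted at 1.2-, 1.5- and 2-fold, with no p-value, since each group had 1 array, which limits the precision. The counting was tested on simulated data with known shifts, larger than the median differences of the set and with little noise. This checks the arithmetic and not how reliable the counts are. Alternatives changed the normalisation, centring, loess trend (statsmodels 0.14.6), probe set, floor, summary and fold.

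The genes and lists were chosen with earlier results of these data known. Values on all arrays are given for the 8 genes with the largest absolute difference in each genotype comparison, 5 paralog pairs and the genes with the highest and lowest mean, and further genes by their differences.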

Additional observations from a re-analysis of the deposited data

Results flagged for a closer look

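Genes were looked for whose genotype difference had opposite signs under the 2 fraction labels, each of at least 1.1-fold (0.14 on the log2 scale), a size set after the values were seen. There were 4: Srp68, Sec61b, Srp14 and Dolpp1. The share of all genes that meet this rule was not counted, so the number does not set these genes apart. Srp68 differed by 0.24 under Lgr5-Hi and -0.24 under Lgr5-Med, a gap of 0.48. Sec61b had 0.29 and -0.17, a gap of 0.46, and Srp14 had 0.16 and -0.27, a gap of 0.43. For Dolpp1 the values were 0.17 and -0.20, with a gap of 0.37. Each rests on 1 array a group, and the differences between labels were not tested.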

How the results depend on the processing

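Of 81 recomputed summaries 64 stayed on the same side and close to their value. Under the label Lgr5-Hi the median of 0.16 was 0.0888 with the loess trend removed and otherwise up to 0.17, and the count of genes at least 1.2-fold higher was 6 in place of 10 after quantile normalisation, after centring on the median of all genes tested and after loess (7.5%, 8.41% and 8.52% of all genes, in place of 10.7%), and 0 at 1.5-fold. Under Lgr5-Med the median of -0.01 turned to 0.0622 after centring and 0.0007 after loess, and the count was 3 in place of 1 after centring (12.3% of all genes in place of 6.21%). The difference between the labels, 0.17, was 0.11 after quantile normalisation, 0.0558 after centring and 0.094 after loess. In controls the fraction median of 0.18 became 0.26 after centring, and the count of 7 (10.6% of all genes) became 12 (10.8%), 18 (17.2%) and 15 (13.4%) after quantile normalisation, centring and loess, and 0 at 1.5-fold (2.3%). In Zip7 KO the fraction median ranged from 0.30 to 0.34, and the count of 23 became 5 at 1.5-fold. Leaving out the X-linked Ssr4 and Magt1, chosen after the data were seen, gave 0.14 and -0.01 for the genotype medians. Of the genes named with values on all arrays, none past 1.2-fold changed sign after quantile normalisation or with the mean of its probe sets, whereas several near 0 under Lgr5-Med did under some scaling. The causes were not tested. No paired analysis was possible because each group has 1 array. All 39 genes were above the floor on all 4 arrays, where it stood at 6.10 to 6.25. Srp19, at 6.75 to 6.82, and Tusc3, at 7.15 to 7.33, lay not far above it. Whether low signal made their differences smaller was not tested.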

Other observations

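The largest fraction differences in Zip7 KO among the other glycosylation genes, which are outside the set and were picked after their values were seen, belonged to Gfpt1 and Gmppb. Gfpt1, the entry enzyme of hexosamine synthesis, had 10.36 and 8.92 in the Zip7 KO arrays labelled Lgr5-Hi and Lgr5-Med and 9.90 and 9.27 in the controls with these labels. Gmppb, which makes the mannose donor GDP-mannose, had 8.16 and 6.92 in these Zip7 KO arrays and 8.02 and 7.25 in the controls. The differences between labels were thus 1.44 for Gfpt1 and 1.24 for Gmppb in Zip7 KO, and 0.63 and 0.77 in controls. Other genes of sugar donor synthesis had smaller differences in Zip7 KO, with 0.72 for Uap1, 0.70 for Pmm2, 0.66 for Gmppa, 0.60 for Mpi, 0.30 for Pgm3, 0.17 for Dpm2, 0.14 for Gnpnat1, 0.08 for Pmm1, 0.02 for Dpm3 and -0.05 for Dpm1. Mcfd2, a cofactor of the cargo receptor Lman1 in glycoprotein export, differed between genotypes by 0.43 under Lgr5-Hi and -0.45 under Lgr5-Med, whereas Lman1 differed by 0.18 and -0.00. These values come from 1 array a group and were not tested.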
